A study of Mus musculus with 8 samples.

Results

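The comparison described here sets the response of embryonic stem cells (ESCs) to loss of nucleostemin (NS) in cells that carried a forced pluripotency factor against the response in cells that did not. It used 8 of the 8 arrays analysed here, 4 on each side, and 18194 genes. All arrays hold RNA of male 129sv NS tet-off ESCs, in which both copies of the NS gene, Gnl3, are disrupted and an NS cDNA in the ROSA26 locus is switched off by doxycycline (Dox). Dox-untreated cells therefore express NS and Dox-treated cells, given Dox for 6 days, do not. No array came from Dox-treated cells that keep NS. An effect of Dox itself therefore cannot be told apart from that of NS loss, least of all in changes shared by all pairs. The unrescued arm was the pair of arrays from cells with an empty vector and the pair from cells in the 2i condition. That condition was 3 µM CHIR99021, which inhibits Gsk3, and 1 µM PD0325901, which inhibits MEK. By their labels, the 2i cells carried the empty vector as well. The rescued arm was the pair from cells with a stably integrated Nanog vector and the pair from cells with an Esrrb vector, both kept in medium with leukemia inhibitory factor (LIF) and serum after selection with puromycin. Each condition had 1 array, so the 2 pairs of an arm stood in for replicates. Every p-value rests on how far those pairs lay apart, in the gene itself and, because limma pools variance, in other genes. None measures a spread between replicates of a condition. A further pair, with constitutively active Stat3, was not used here.

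NS binds GTP, resides mainly in the nucleolus and is needed for the self-renewal of proliferating stem cells. Nanog is a homeobox transcription factor and Esrrb an orphan nuclear receptor, and both belong to the transcription network that keeps mouse ESCs in the naive state. When that network fails, ESCs can switch on genes of the lineages it normally holds down, trophoblast and endoderm among them. The question of the comparison is which part of the response to NS loss is absent, kept or turned around when Nanog or Esrrb is supplied.

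Gnl3 fell in every pair. It read 13.47 without and 7.79 with Dox in empty vector cells and 13.54 and 8.01 in the 2i pair, on the log2 scale of the arrays. With Nanog it read 13.68 and 9.13, and with Esrrb 13.61 and 8.61. The signal after Dox was 1.95% and 2.17% of the untreated signal in the unrescued pairs and 4.25% and 3.13% in the rescued pairs. The difference between the arms was 0.83 ± 0.18 (SE) and did not pass the threshold (limma adjusted p = 0.114).

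Some labels could not be checked on the arrays. The probe set of Nanog read 12.35 and 12.23 in the cells labelled Nanog, no higher than the 12.81 and 12.49 of empty vector cells. The highest of the 3 probe sets of Esrrb read 11.27 and 11.38 in the cells labelled Esrrb against 11.31 and 10.38 with the empty vector, and the dimmest read 7.77 and 7.87 against 7.03 and 5.85. The sources used here do not say whether these probe sets read the introduced cDNAs.

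The array labelled 2i and Dox-untreated went against its label. Dusp6, a phosphatase induced by MEK and Erk signalling and lost when MEK is inhibited, read 10.95 on it, next to 10.97 in untreated empty vector cells, but 7.63 on the Dox-treated 2i array. Spry4, another feedback inhibitor of the pathway, read 9.92 and 4.07 on these arrays. Within this pair the response to NS loss and a change in MEK activity cannot be told apart, so results are also given without it. ESC markers were high on all 8 arrays, with medians of 12.57 to 13.03, and 6 of 8 fibroblast markers were below the probe set median of 5.35 on every array. The cells labelled Esrrb stood apart in primitive endoderm markers, whose median of 6.86 without Dox compared with 4.67 to 5.04 on the other untreated arrays.

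Across genes the Dox response of the rescued arm was smaller than that of the unrescued arm, with a slope of 0.342 of the one on the other over all genes, which are not independent replicates. A gene was taken to respond when its log2 ratio, which is the value with Dox minus the value without it in 1 pair, passed 2-fold in one direction in both unrescued pairs, and 506 genes were higher (2.78% of all) and 269 lower (1.48%). Both rescued ratios lay within 1.5-fold for 189 of the higher genes (1.04% of all genes) and 116 of the lower genes (0.638%), here called blocked. Both passed 2-fold in the same direction for 70 (0.385%) and 32 (0.176%), here called left. Both passed 1.5-fold in the opposite direction for 1 gene each way, called reversed (0.0055% each, 0.011% together), and the remaining 246 (1.35%) and 120 (0.66%) were in between. Those in between include 10 higher and 8 lower genes with at least 1 rescued ratio past 1.5-fold in the opposite direction. Left genes in either direction made up 0.561% of all genes. The share of the unrescued log2 response that was kept had a median of 33.1% for the higher genes, with quartiles of 18.4% and 49.7%, and of 31.7% for the lower genes, with quartiles of 13.9% and 52.3%. Because the genes were chosen for large ratios in the unrescued pairs, those ratios are overstated by the choice, but the rescued ratios share no array with them.

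**Figure D1:**
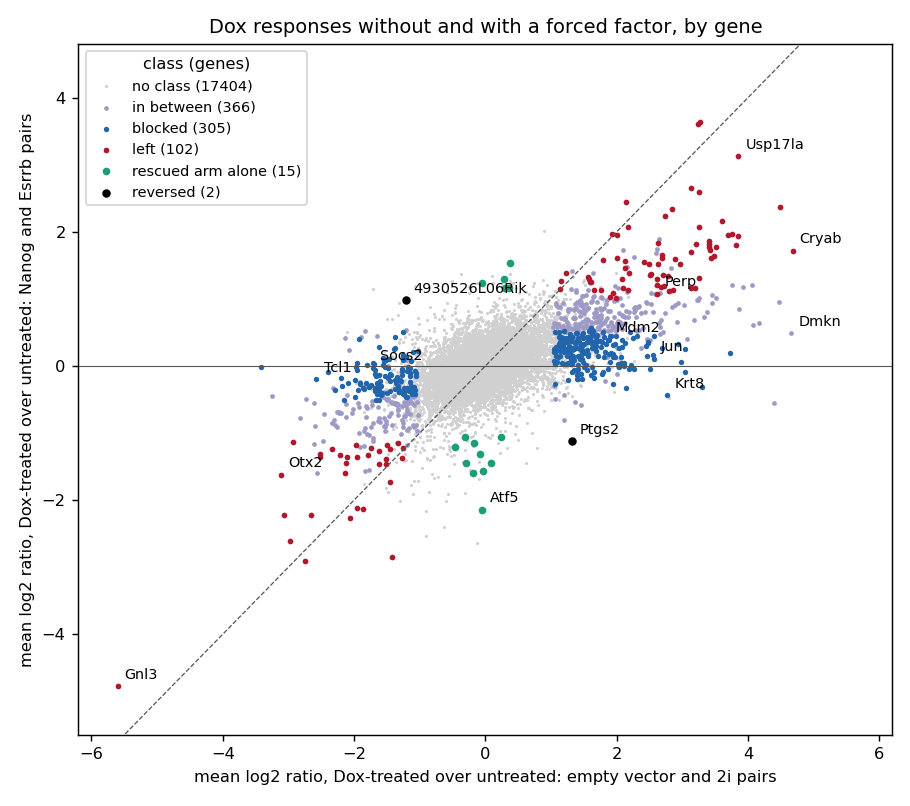
Each point is 1 of 18194 genes, with its mean log2 ratio (Dox-treated over Dox-untreated) in the empty vector and 2i pairs on the x axis and in the Nanog and Esrrb pairs on the y axis. Colours give the class, and the dashed line marks equal responses. Blocked genes lie along the horizontal line at 0, left genes lie towards the dashed line, and Gnl3 lies at the lower end with -5.60 and -4.78.

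Blocked genes had smaller unrescued ratios than left genes, which the fixed fold bounds favour. At an equal kept share, a small response falls within 1.5-fold more readily and a large one passes 2-fold. The rescued medians and kept shares of the classes also follow in part from those bounds. Blocked genes that were higher had median log2 ratios of 1.58 with the empty vector and 1.37 with 2i, against 0.30 with Nanog and 0.22 with Esrrb. Left genes that were higher had medians of 2.74 and 2.45 against 1.48 and 1.53. Left genes kept a median of 56.4% of the response when higher and 80.9% when lower. The untreated level of the rescued cells was already over 2-fold shifted towards the response in both lines for 0 of the 189 higher and 1 of the 116 lower blocked genes. In at least 1 line this held for 8 and 4. After Dox, 90 of the 189 and 50 of the 116 ended over 2-fold short of the mean unrescued treated level in both lines. A blocked ratio therefore need not mean an end level far from that of the unrescued cells.

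The choice was also turned around. Of 88 genes over 2-fold higher in both rescued pairs, 70 were over 2-fold higher in both unrescued pairs, and of 96 genes lower in both rescued pairs 32 were lower in both unrescued pairs. By single pairs, 5.36% of all genes passed 2-fold upward with the empty vector, 4.81% with 2i, 1.13% with Nanog and 1.06% with Esrrb, and 3.85%, 3.1%, 1.17% and 0.967% did so downward. Of the 976 genes past 2-fold upward with the empty vector, 51.8% also passed with 2i, 13.9% with Nanog and 14.8% with Esrrb. Of the 701 lower genes these shares were 38.4%, 17% and 13.1%. The share that passed was lower in both factor pairs than in the 2i pair in either direction. With the 2i pair left out, 976 higher genes gave 472 blocked (48.4%), 78 left and 1 reversed, and 701 lower genes gave 367 blocked (52.4%), 60 left and 4 reversed.

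In limma, with the 4 backgrounds as blocks and 2 residual degrees of freedom, Dox changed 1650 genes upward (9.07%) and 1673 downward (9.2%) in the unrescued arm (18.3% in all), and 98 upward (0.539%) and 69 downward (0.379%) in the rescued arm (0.918% in all). The difference between the arms itself passed an adjusted p of 0.05 for 15 genes (0.0824%), all lower in the rescued arm, and for 0 genes in the other direction, while 2874 genes had an unadjusted p under 0.05. The 15 calls lay just under the threshold, with a smallest adjusted p of 0.047. The calls were lost without the Nanog pair or without the Esrrb pair, and kept without the 2i pair or without the empty vector pair. Each of these fits left 1 pair in an arm and had 1 residual degree of freedom. The size of the difference moved little: for Dmkn it was -4.29 without the Nanog pair and -4.03 without the Esrrb pair, and for Jun -2.49 and -2.43.

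The 15 called genes were Dmkn, Gnal, Pdzrn3, Cryab, Tas1r1, Tap1, Jun, Plk2, Bbs7, Atf5, Ccn2, Hspa1b, Crip2, Ptpn14 and Perp. With Atf5 set aside, all had log2 ratios of at least 1.94 in both unrescued pairs, and Atf5 is described with the genes of the rescued arm. Jun, the AP-1 transcription factor, read 6.81 without and 9.52 with Dox in empty vector cells and 6.53 and 8.96 in the 2i pair, against 7.44 and 7.58 with Nanog and 6.81 and 6.89 with Esrrb. Its difference was -2.46 ± 0.19 (SE, limma adjusted p = 0.047), and the rescued ratios of 0.14 and 0.08 lay below the unrescued ratios of 2.71 and 2.42. The AP-1 family did not move as Jun did. Over 15 measured AP-1 genes, Jun included, median ratios were 0.27 and 0.05 in the unrescued and 0.04 and -0.10 in the rescued pairs. Their median difference was -0.08, beside -0.02 over all genes, with 8 genes below 0 and 7 above.

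Dmkn, which encodes the secreted epidermal protein dermokine, had the largest difference of the 15, at -4.16 ± 0.22. It read 3.79 and 8.46 with the empty vector, then 4.56 and 9.20 in the 2i pair, and 3.68 and 4.30 with Nanog and 4.84 and 5.20 with Esrrb. Hspa1b, an inducible heat shock chaperone, was blocked, with log2 ratios of 2.01, 1.94, 0.07 and 0.19 with the empty vector, with 2i, with Nanog and with Esrrb, the order kept below. Cryab, a small heat shock protein, was not: its ratios were 4.74, 4.62, 2.02 and 1.41 in the same order, and it rose in the rescued arm too (limma adjusted p = 0.0289). Hspa1a, the relative of Hspa1b, was not blocked either and was in between, with 3.17, 1.99, 0.70 and 1.43. Ccn2, a matricellular target of YAP, had ratios of 3.05, 2.71, 0.93 and 0.88. Perp, a desmosomal protein and p53 target, had 2.66, 2.57, 1.07 and 1.09, and the smallest SE of the 15, at 0.11. Other probe sets of the same gene did not all follow: the least negative difference over a gene's probe sets was 0.39 for Bbs7, 0.27 for Gnal, 0.07 for Tap1, -0.12 for Pdzrn3, -0.16 for Plk2 and -0.22 for Cryab.

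**Figure D2:**
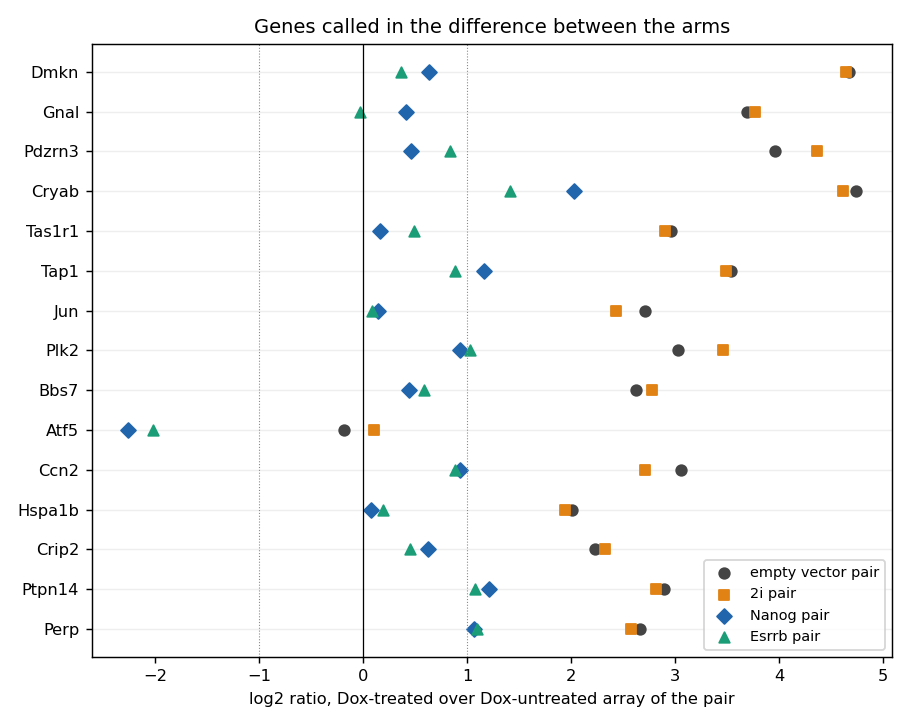
The 15 genes called in the difference between the arms, one per row, with its log2 ratio after Dox in each of the 4 pairs on the x axis; dotted lines mark 2-fold. The empty vector and 2i points lie together and apart from the Nanog and Esrrb points in every row, which the call itself selects for. Atf5 alone has both rescued points below 0, at -2.26 and -2.02.

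Since Jun was among the blocked genes, the RefSeq promoters (GRCm38.p6, 250 bases before to 50 after a gene start) were searched for the AP-1 site TGAGTCA on both strands, the other strand reading TGACTCA. It was present in 12 of 197 promoters of blocked higher genes (6.09%), 23 of 257 of in-between higher genes (8.95%) and 2 of 66 of left higher genes (3.03%), beside 4.52% of the 18110 promoters of all measured genes. The letters AAGGTCA that Esrrb recognises, also searched on both strands, were present in 3.55%, 1.95% and 9.09% of the same sets and in 3.92% of all promoters. These are counts of letters and were not tested. Among the 15 called genes the AP-1 letters were found in 3 promoters, all of Dmkn and holding 2 sites between them. They were also found in a promoter of Krtdap, the neighbour of Dmkn, which was not called and had rescued ratios below 0. These windows are shown because Dmkn had the largest difference of the 15. The site is in capitals, 5′ to 3′, on the plus strand, at chr7:30763650-30763690 and chr7:30776306-30776346 for Dmkn and at chr7:30787807-30787847 for Krtdap.
Dmkn, upstream site: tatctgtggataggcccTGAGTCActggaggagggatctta
Dmkn, downstream site: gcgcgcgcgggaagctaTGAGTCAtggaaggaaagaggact
Krtdap: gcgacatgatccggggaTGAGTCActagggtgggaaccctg

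Of 25 measured genes of trophoblast and simple epithelium, 12 rose in the unrescued arm and 0 in the rescued arm by limma, beside 9.07% and 0.539% of all genes, and 0 were called in the difference between the arms. Of these 25 genes 8 were response genes, and 5 of those were blocked (Krt8, Krt18, Gata3, Cited1 and Eomes) and 3 in between. Median log2 ratios of the list were 1.10, 0.75, 0.19 and -0.01, and the median difference was -0.89, beside -0.02 over all genes. Both rescued ratios lay below both unrescued ratios for 17 of 25 members, beside 24.1% of all genes. The kept share of the 8 response genes had a median of 11.1%.

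Krt8, a keratin of simple epithelia, read 8.40 and 12.25 with the empty vector, then 9.02 and 10.72 in the 2i pair, but 9.34 and 8.86 with Nanog and 10.21 and 9.82 with Esrrb. Both rescued lines were above untreated vector cells before Dox and below treated ones after it. Its partner Krt18 had log2 ratios of 4.42, 1.68, -0.17 and -0.01. Krt19 and Krt7, further keratins of simple epithelia, were in between, with 4.96, 3.21, 0.92 and 0.30 for Krt19 and 2.91, 3.75, 0.50 and 0.96 for Krt7. The trophoblast factor Gata3 read 4.03 and 5.99 with the empty vector, 3.95 and 6.18 with 2i, 3.81 and 4.07 with Nanog and 4.10 and 3.89 with Esrrb. The difference of Gata3 was -2.07 ± 0.25, just outside the threshold (limma adjusted p = 0.0521). Cdx2, the first trophectoderm regulator, moved past 2-fold in the empty vector pair alone, with ratios of 1.07, 0.11, -0.04 and 0.00. The median over 7 trophoblast markers was 5.87 and 6.40 with the empty vector and 5.50 and 6.18 with 2i. It was 5.25 and 5.77 with Nanog and 5.73 and 5.87 with Esrrb, so it was higher after Dox in all pairs. In bulk RNA, fewer cells of a type and less RNA per cell cannot be told apart.

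Of 50 measured developmental regulators held by Polycomb, 9 rose in the unrescued arm and 0 in the rescued arm, beside 9.07% and 0.539% of all genes, and 0 were called in the difference. The list medians were 0.10, 0.25, -0.07 and -0.13. Of the 6 response genes 4 were blocked (Irx3, Irx5, Msx2 and Nkx2-2) and 0 were left. Irx3 had log2 ratios of 1.79, 1.43, -0.24 and -0.04 and Msx2, a homeobox factor downstream of BMP, 1.65, 1.15, -0.24 and 0.08. Tbx4, a T-box factor, was in between with 3.73, 4.0, 1.12 and 0.58. Gata6, a primitive endoderm factor, had 1.42 and 1.5 in the unrescued pairs and -0.59 and -0.58 in the rescued pairs, and its untreated level was 8.39 in the Esrrb cells against 4.67 to 5.23 in the others. The median difference over the list was -0.23.

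Targets of serum response factor and YAP had lower medians with a factor. Epidermal response genes kept a median of 23.8% of the log2 response, beside 32.3% over all 775 response genes. Of 25 measured targets of serum response factor and YAP, 13 rose without a factor and 1 with one, beside 9.07% and 0.539% of all genes. Their median log2 ratios were 0.89, 0.64, 0.19 and 0.12. Thbs1, a matrix glycoprotein, had ratios of 3.03, 1.05, -0.03 and -0.01 and Tagln, an actin-binding protein of smooth muscle, 2.72, 1.42, 0.09 and 0.17, both blocked. Ccn1, a matricellular protein, kept 32.1% of its response and Anxa1, an annexin, 27.1%. Of 30 measured epidermal genes 7 were response genes, of which 0 were blocked, 4 were in between and 3, Perp, Fgfbp1 and S100a6, were left. Krtdap, expressed in differentiating keratinocytes, had 2.94, 5.85, -0.26 and -0.86. It was in between, not blocked, because its Esrrb ratio passed 1.5-fold in the opposite direction. Sbsn, which encodes suprabasin, had 5.49, 3.44, 0.87 and 1.05. Of 7 keratinocyte markers 4, namely Krt14, Krt1, Trp63 and Ivl, were below the probe set median of 5.35 on all 8 arrays, and the list medians lay between 4.58 and 5.14.

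**Figure D3:**
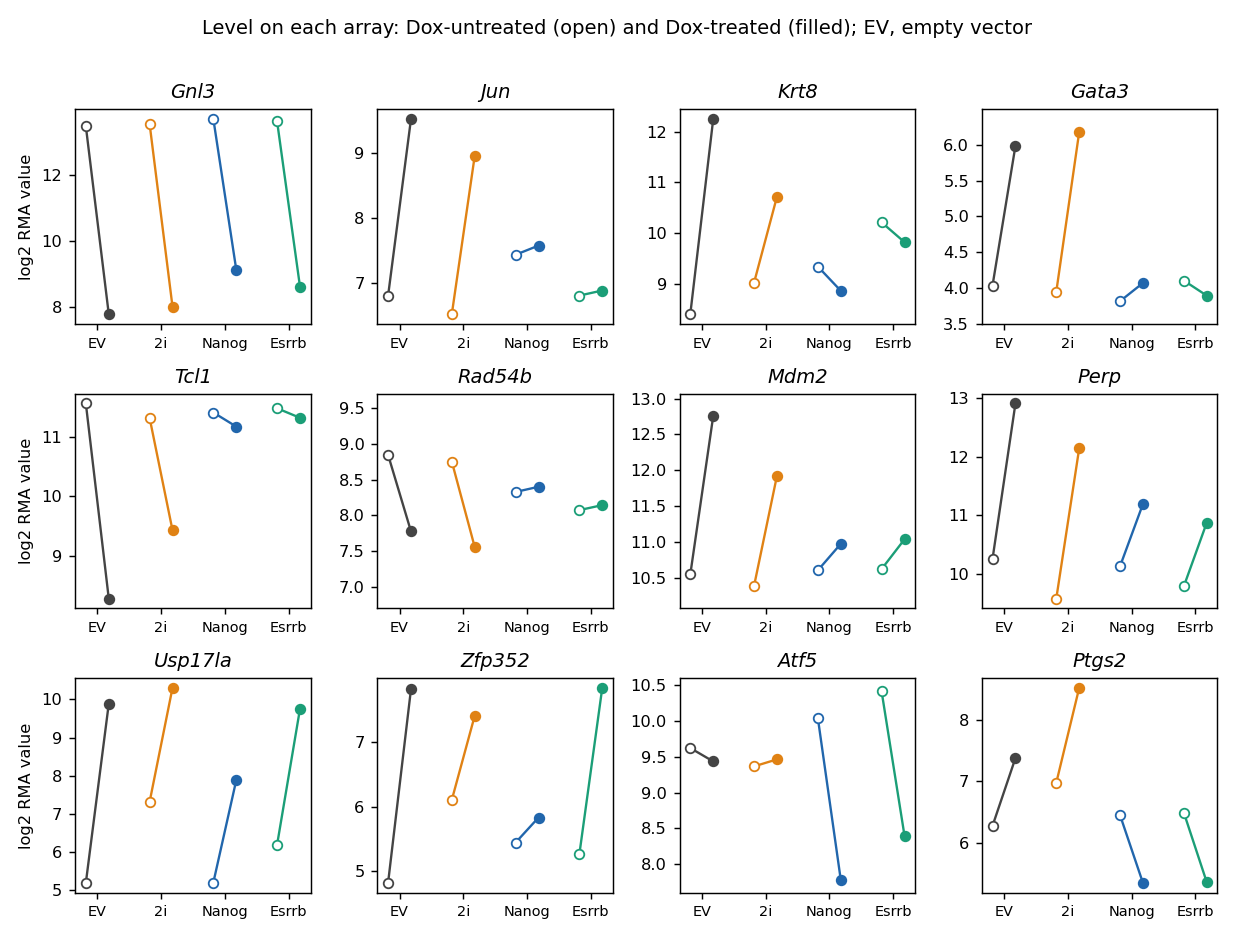
Log2 values of 12 genes on each of the 8 arrays, with Dox-untreated arrays as open and Dox-treated arrays as filled points joined within a pair; the y axes differ between genes, and there are no error bars because each point is 1 array. Jun, Krt8, Gata3, Tcl1 and Rad54b have rescued ratios within 1.5-fold, Perp and Usp17la pass 2-fold in all pairs, Zfp352 keeps it with Esrrb and less with Nanog, Atf5 falls in the rescued lines alone and Ptgs2 runs in opposite directions.

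Tcl1, a coactivator of Akt, read 11.56 and 8.29 with the empty vector, then 11.32 and 9.43 in the 2i pair, against 11.40 and 11.17 with Nanog and 11.48 and 11.32 with Esrrb. Of 32 measured pluripotency genes 12 fell in the unrescued arm and 0 in the rescued arm, beside 9.2% and 0.379% of all genes, 0 were called in the difference between the arms, and 29 had a difference above 0, beside 8705 of 18194 genes. Both rescued ratios lay above both unrescued ratios for 16 of the 32, beside 23.2% of all genes. Nr0b1, an orphan receptor that partners Nanog and Oct3/4, was in between, with ratios of -2.30, -2.30, -1.08 and -0.54. Eras, an ESC-specific Ras, had -1.0, -1.61, 0.34 and 0.47. Among core factors, Pou5f1 fell slightly in the unrescued arm (limma adjusted p = 0.0235), with -0.44, -0.28, -0.01 and 0.11, and Sox2 had 0.09, 0.05, 0.07 and 0.24.

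Socs2, a target of Stat3, read 11.23 and 9.56 with the empty vector, and 11.01 and 9.24 with 2i. With Nanog it ended at 11.23, 0.23 above its untreated level, and with Esrrb it read 11.03 and 10.75. Its difference was 1.69 ± 0.20 (SE, limma adjusted p = 0.0518). Lifr, the LIF receptor, had ratios of -1.09, -0.95, 0.18 and -0.06. The Nodal antagonists Lefty1 and Lefty2 had -1.29 and -2.12, and -1.38 and -1.03, in the unrescued pairs, but 0.04 and 0.04, and 0.71 and 0.35, in the rescued pairs. Of 22 measured genes on the LIF and Stat3 list, 7 fell in the unrescued arm and 1 in the rescued arm, beside 9.2% and 0.379% of all genes. The 1 was Ocln, a tight junction gene that is also on the epithelial junction list. In the difference 0 were called.

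Genes of homologous recombination moved together. All 28 measured had a difference above 0, beside 8705 of 18194 genes. For 21 both rescued ratios lay above both unrescued ratios, beside 23.2% of all genes. By limma 17 fell in the unrescued arm and 0 in the rescued arm, beside 9.2% and 0.379% of all genes. Median log2 ratios were -0.52 and -0.49 in the unrescued and 0.02 and 0.07 in the rescued pairs, so that most members fell by less than 2-fold and 2, Rad54b and Rad51c, were response genes. Rad54b, a motor protein of recombination, read 8.85 and 7.78 with the empty vector, 8.75 and 7.56 with 2i, 8.33 and 8.40 with Nanog and 8.07 and 8.14 with Esrrb. Brca1 had ratios of -0.91, -1.12, 0.00 and -0.33 and Brca2 had -0.78, -0.49, 0.29 and 0.53. The median difference of the list was 0.49, and 0.47 without the 2i pair. No member was called in the difference between the arms, and the members are not independent of each other.

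Uhrf1, which recruits Dnmt1 to replicating DNA, was blocked, with ratios of -1.33, -1.25, -0.03 and -0.43. Ezh2, the Polycomb methyltransferase, had -0.90, -0.90, -0.14 and -0.17. Of 41 measured cell cycle genes 21 fell in the unrescued arm and 0 in the rescued arm, beside 9.2% and 0.379% of all genes. In the difference 0 were called, and 32 had a difference above 0, beside 8705 of 18194 genes. The cell cycle inhibitor Cdkn2b ran the other way and was left, with 3.77, 3.11, 1.46 and 1.76.

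Targets of p53 were reduced but not removed. Of 38 measured, 27 rose in the unrescued arm and 6 in the rescued arm, beside 9.07% and 0.539% of all genes. The 6 were the highest count of genes that rose in the rescued arm among the 35 lists, which differ in size. On the shorter list of 2-cell embryo genes 2 of 11 rose there. Of 19 response genes 4 were blocked, 11 in between and 4 left, and they kept between 21% and 85.1% of the log2 response with a median of 40.9%, beside 32.3% over all 775 response genes. Mdm2, the ubiquitin ligase that p53 induces against itself, read 10.54 and 12.76 with the empty vector, 10.38 and 11.92 with 2i, 10.60 and 10.97 with Nanog and 10.62 and 11.04 with Esrrb. The cell cycle inhibitor Cdkn1a had ratios of 1.46, 2.16, 0.48 and 0.39. Both were blocked under the rule, yet both rescued ratios were above 0.

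Other p53 targets were left. Perp read 10.25 and 12.92 with the empty vector, 9.57 and 12.15 with 2i, 10.13 and 11.20 with Nanog and 9.78 and 10.87 with Esrrb, and it rose in the rescued arm (limma adjusted p = 0.0238). Ephx1, an epoxide hydrolase, kept 69.7% with ratios of 2.41, 2.84, 2.00 and 1.66, and Dcxr, a carbonyl reductase, kept 61.4% with 2.59, 2.77, 1.74 and 1.55. The death receptor gene Fas was in between with 2.84, 2.84, 1.10 and 0.65. The median difference over the list was -0.69, with and without the 2i pair.

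**Figure D4:**
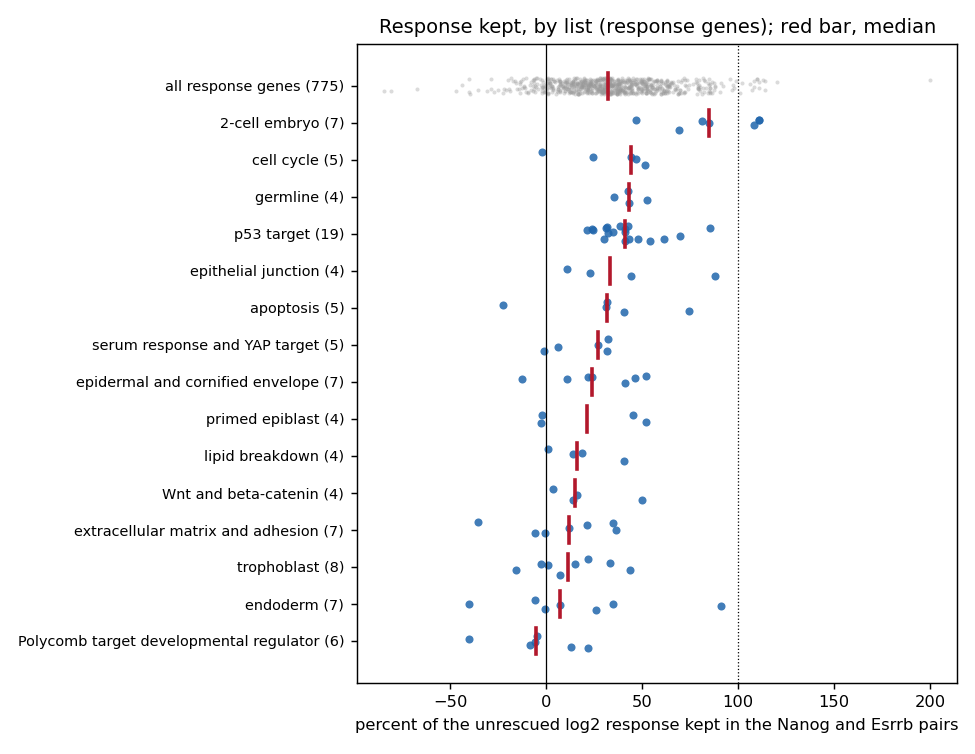
Each point is a response gene of a list with at least 4 of them, placed by the percent of its unrescued log2 response kept in the Nanog and Esrrb pairs, with the median as a red bar and the number of genes in brackets; 0 is a fully blocked and 100 a fully kept response. Medians run from -5.22% for Polycomb target regulators, through 7.16% for endoderm, 11.1% for trophoblast, 40.9% for p53 targets, 42.8% for germline and 44.2% for cell cycle genes, to 85% for 2-cell embryo genes, beside 32.3% over all 775 response genes.

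Among lists with at least 4 response genes, the highest median share was kept by 2-cell embryo genes, which a small share of ESCs expresses at any time. Of 11 measured, 7 were response genes, with 4 left (Usp17la, Arg2, AF067061 and Gm20767) and 3 in between, and they kept a median of 85%. Usp17la, a deubiquitinase gene, read 5.18 and 9.89 with the empty vector, 7.31 and 10.31 with 2i, 5.20 and 7.88 with Nanog and 6.19 and 9.76 with Esrrb. Its difference of -0.72 ± 0.60 was within the spread of the pairs (limma adjusted p = 0.644). Arg2, an arginase, had ratios of 3.30, 2.95, 1.95 and 3.37. Several of these genes belong to families of near-identical copies, so a probe set may read more than 1 of them. The median difference over the list was -0.25, and -0.64 without the 2i pair, whose untreated array already read above the untreated vector cells for all of the genes given here.

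With Nanog these genes moved less than with Esrrb. The 3 genes in between, Zfp352, Tcstv1 and Tcstv3, all passed 2-fold with Esrrb and lay within 1.5-fold with Nanog. Zfp352 read 4.82 and 7.82 with the empty vector, 6.11 and 7.41 with 2i, 5.45 and 5.83 with Nanog and 5.26 and 7.84 with Esrrb. The list medians were 0.39 with Nanog and 2.43 with Esrrb, against 1.97 and 1.3 in the unrescued pairs, and the difference between the factors, with 1 pair each, was not tested. Among all in-between genes that were higher, 20 passed 2-fold with Esrrb and lay within 1.5-fold with Nanog, and 14 did the reverse. Among those that were lower the counts were 11 and 14, with Nr0b1 in the second.

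Beyond these lists, the strongest left genes that rose included Ms4a10, a membrane protein gene, at 5.61 and 10.12 with the empty vector, 6.05 and 10.53 with 2i, 5.06 and 7.71 with Nanog and 5.28 and 7.36 with Esrrb, and Neurod1, a neurogenic transcription factor, with ratios of 3.92, 3.30, 2.28 and 2.03. Both rose in the rescued arm (limma adjusted p = 0.0238 for each). Of the 70 left genes that were higher, 47 were called in the rescued arm, beside 0.539% of all genes. Of the 32 that were lower, 16 were called, beside 0.379%. Left genes were chosen by the same rescued ratios, so calls and p-values of left genes in the rescued arm add no separate support.

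Left genes that were lower included Otx2, a factor of the primed epiblast, with ratios of -2.32, -3.90, -1.88 and -1.36, Sycp3, a protein of the synaptonemal complex, with -2.89, -2.14, -1.48 and -1.15, and Hrk, a BH3-only apoptosis gene, with -2.39, -1.88, -1.51 and -1.67. Ripply3, a repressor of T-box factors, had -3.17, -2.70, -1.14 and -1.12. Also left were 3 genes whose introns host small nucleolar RNAs, Gas5, Snhg1 and Snhg12, which were named after their values were seen. Gas5 read 13.46 and 11.39 with the empty vector, 12.99 and 11.81 with 2i, 13.26 and 12.05 with Nanog and 12.90 and 11.58 with Esrrb. Snhg1 fell in the rescued arm (limma adjusted p = 0.0343), and Gas5 and Snhg12 did not pass there, with 0.0647 and 0.0735.

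Reversal was rare, at 2 of 775 response genes. Ptgs2, the inducible cyclooxygenase, read 6.27 and 7.38 with the empty vector, then 6.97 and 8.52 in the 2i pair, but 6.45 and 5.34 with Nanog and 6.49 and 5.36 with Esrrb. The uncharacterised 4930526L06Rik read 4.79 and 3.46, and 4.88 and 3.78, against 4.61 and 5.47, and 4.84 and 5.95. The difference was -2.44 ± 0.23 for Ptgs2 and 2.19 ± 0.22 for 4930526L06Rik, each with a limma adjusted p of 0.0518. Ddit4, an inhibitor of mTOR signalling, came near, with 1.63, 1.09, -0.45 and -0.63.

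A response found in the rescued arm alone was seen for 15 genes, 5 higher (0.0275%) and 10 lower (0.055%). Stress-induced transcription factors stood among the lower ones. Atf5, a bZIP factor of the integrated stress response, read 9.62 and 9.43 with the empty vector, then 9.37 and 9.46 in the 2i pair, but 10.05 and 7.78 with Nanog and 10.42 and 8.40 with Esrrb. Its difference of -2.10 ± 0.18 passed the threshold (limma adjusted p = 0.0473). Cebpb, another bZIP factor, read 10.59 and 10.80, 10.24 and 10.20, 10.92 and 9.52, and 10.92 and 9.44 in the same order of pairs. The difference of Cebpb was -1.53 ± 0.14 (limma adjusted p = 0.0518), and it fell in the rescued arm with a limma adjusted p of 0.0238. The class was chosen by the same rescued ratios, so the latter p-value adds no separate support.

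The integrated stress response, in which a halt of general translation favours Atf4 and its targets, had medians below 0 in all pairs. Median log2 ratios over 36 genes were -0.19, -0.35, -0.52 and -0.74, and 30 of 36 had a difference below 0, beside 9489 of 18194 genes. In the rescued arm 6 fell by limma, namely Atf5, Cebpb, Cebpg, Stc2, Nupr1 and Chac1, beside 0.379% of all genes. In the unrescued arm 13 fell, beside 9.2%. Stc2, a secreted glycoprotein, had ratios of -0.68, -0.95, -1.45 and -1.77 and Trib3, a pseudokinase, 0.04, -0.48, -0.96 and -1.16. Atf3 was higher without and lower with a factor, at 0.62, 0.80, -0.43 and -1.58, though it passed in neither arm. Other genes of the rescued arm alone were Ocln, a tight junction protein, with 0.29, 0.18, -1.03 and -1.09, and Glce, an enzyme of heparan sulfate synthesis, with -0.09, -0.25, -1.07 and -1.24. Armh4 was the other way, with 0.50, 0.22, 1.09 and 1.21.

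**Figure D5:**
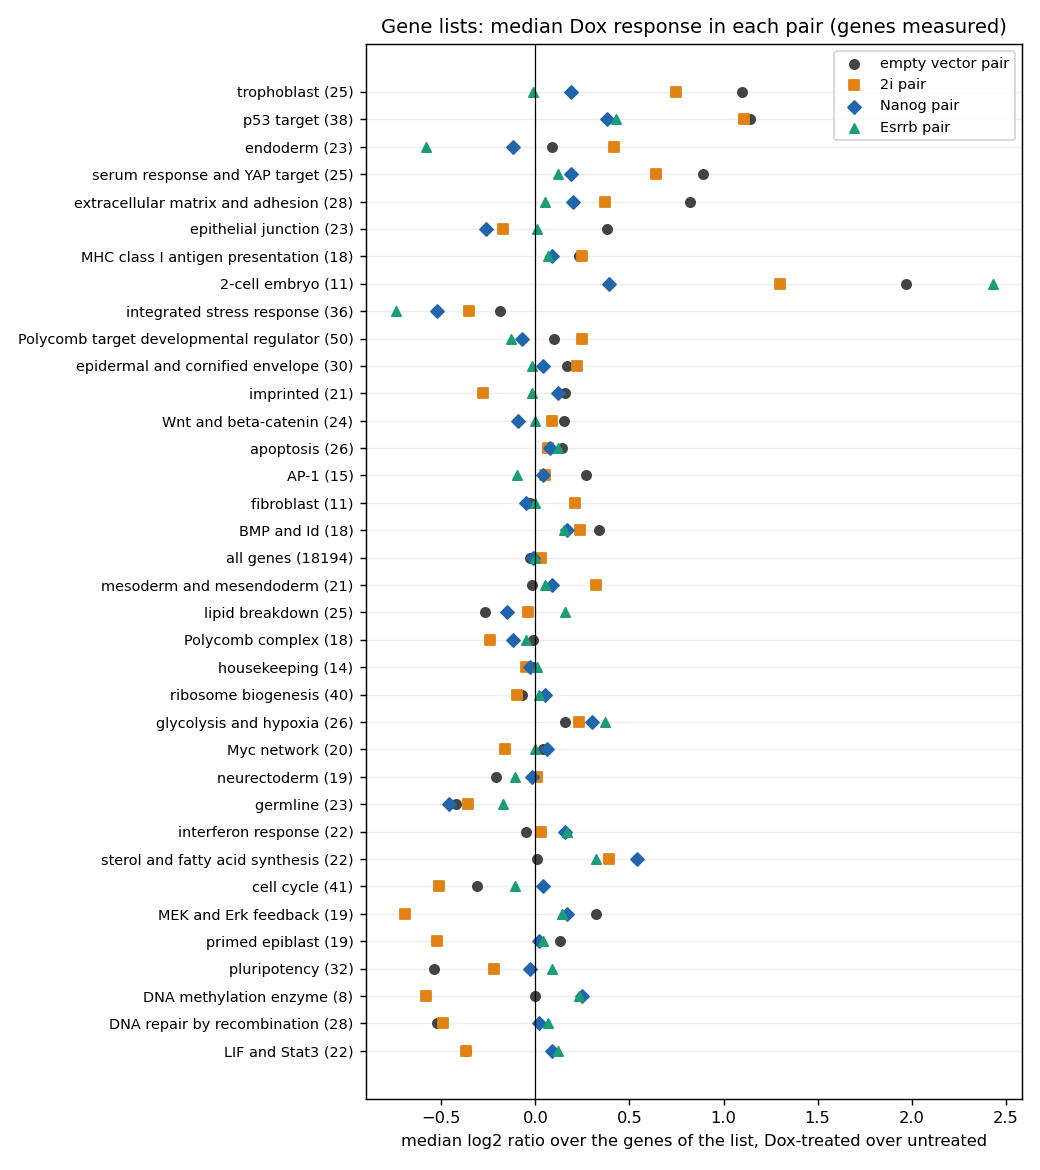
Median log2 ratio after Dox in each of the 4 pairs for 35 gene lists and all genes, one per row, with the number of genes measured in brackets and rows ordered by the median difference between the arms. Trophoblast genes and p53 targets lie at the top, with median differences of -0.89 and -0.69, and LIF and Stat3 and recombination genes at the bottom, each with 0.49.

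The median difference of the MEK and Erk feedback list turned with the 2i pair. It was 0.37 with all pairs and -0.18 without the 2i pair, where the median ratio was -0.69 against 0.32 with the empty vector. Spry4, blocked under the rule, had ratios of -1.0 and -5.85 in the unrescued and -0.32 and 0.29 in the rescued pairs. For the primed epiblast list it was 0.40 with and 0.05 without that pair. Housekeeping genes had medians between -0.05 and 0.01 in the 4 pairs, and fibroblast genes between -0.05 and 0.21.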

How the data were processed

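RNA of 8 conditions, 1 Affymetrix GeneChip mouse array each, was compared. The deposited values are log2 signals that the authors made by RMA (affy, R: background subtraction, quantile normalization, summary into probe sets; no versions stated; the log base was read as 2 from their range of 1.82 to 14.6), so a shift of all genes in one direction would not be seen. They were used as deposited; 0 value columns belong to other samples. Of 45101 probe sets, 34958 had 1 gene symbol, 932 several and 9211 are unnamed here; 34754 matched RefSeq by Entrez ID. Each of 18194 genes was represented by its brightest probe set on average. Array medians were 5.31 to 5.36. Precision is limited by the number of arrays.

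limma 3.58.1 (R 4.3.3; lmFit, eBayes with trend) fitted 4 backgrounds as blocks and 1 Dox response for each arm, two-sided, with Benjamini-Hochberg adjustment over all genes at 0.05. An exact permutation of 2 pairs against 2 cannot go below 0.333 and was not used. A response was a 2-fold and a block a 1.5-fold bound. The fit was tested on simulated data.

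The 35 gene lists were written from general knowledge and share genes. They, the classes and the comparison were chosen with earlier results of these data known. Genes named are Gnl3, Nanog, Esrrb, Dusp6, Spry4, the called genes, in each class and direction the 10 with the largest smaller-of-the-pairs ratio among genes above the median signal, and from each list its first 3 members, its 5 largest differences and its left, reversed or rescued-arm-alone members. The cell type markers, 4930526L06Rik, Nkx2-2, Cebpg, Stc2, Chac1, Hspa1a, Gas5, Snhg1 and Snhg12 lie outside this rule and, like the further genes moving in opposite directions, were named after their values were seen. Alternatives were a mean over each gene's probe sets, no _x_at and _s_at probe sets, a filter on dim genes, array centring, repeated quantile normalization, the empty vector untreated array as the 2i reference, leaving out each pair, other limma settings and other fold bounds.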

Additional observations from a re-analysis of the deposited data

Results flagged for a closer look

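The 15 genes called in the difference between the arms had rescued minus unrescued log2 responses of -4.16 for Dmkn, -3.54 for Gnal, -3.52 for Pdzrn3, -2.96 for Cryab, -2.60 for Tas1r1, -2.49 for Tap1, -2.46 for Jun, -2.27 for Plk2, -2.19 for Bbs7, -2.10 for Atf5, -1.98 for Ccn2, -1.84 for Hspa1b, -1.74 for Crip2, -1.71 for Ptpn14 and -1.54 for Perp. Each had both rescued pairs below both unrescued pairs, as did 24.1% of all genes, and the call itself selects for this.

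A further 8 genes moved past 1.5-fold in opposite directions in the arms, in all 4 pairs. Ptgs2 had a difference of -2.44, and the other 7 were lower without and higher with a factor: 4930526L06Rik (2.19), Cnpy1 (1.40), Gabbr1 (1.72), Morc1 (2.09), Notch4 (2.27), Slc38a5 (1.51) and Spink1 (2.87). None of the 8 was called by limma, with adjusted p from 0.0518 to 0.0929, and apart from Ptgs2 and 4930526L06Rik they were named after their values were seen. With 1 array for each condition, no array could be set apart from replicates of its own condition.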

How the results depend on the processing

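Counts of calls moved with nearly every choice. The 15 genes called in the difference between the arms became 1 with the mean of all probe sets, 87 without _x_at and _s_at probe sets, 0 among genes above the probe set median, 77 with arrays centred, 0 with the empty vector untreated array as the 2i reference, 1 without the mean-variance trend, 171 with the robust prior and 0 without moderation. Leaving out 1 pair gave 0 to 2222 calls. All 15 were called again without _x_at and _s_at probe sets, with centring, with the robust prior, without the empty vector pair and without the 2i pair, and 13 of them with repeated quantile normalization. The 3323 calls in the unrescued arm became 354 with the other 2i reference, 0 without moderation and 954 to 4704 with 1 pair left out. The 167 in the rescued arm became 24 with the mean of probe sets, 1 with the other 2i reference, 2 without the trend, 0 without moderation and 0 to 2935. Without a pair, the lone pair of an arm was assumed to vary like the others.

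The classes are counts at fold bounds. With a response of 1.5-fold there were 1192 blocked, 413 left, 8 reversed and 108 genes of the rescued arm alone, and at 3-fold 58, 26, 0 and 1, with 188 in between and 34.6% kept. With a blocked bound of 1.2-fold there were 78 blocked, 583 in between, 12 reversed and 3 of the rescued arm alone, and at 2-fold 530, 142, 1 and 33. With the empty vector pair alone there were 839 blocked, 695 in between, 5 reversed, 26 of the rescued arm alone and 27.9% kept. Reversed genes numbered 1 with the mean of probe sets and 1 above the median, where 9 were of the rescued arm alone. Over left-out pairs the ranges were 401 to 839 blocked, 181 to 695 in between, 113 to 173 left, 5 to 12 reversed, 26 to 49 of the rescued arm alone and 25.3% to 33.6% kept. The cause of these shifts was not tested.

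No called gene changed sign in any of its 150 comparisons with a setting. The sign turned with the other 2i reference for Nanog (-0.01), AF067061 (-0.77), Gm20767 (-0.88) and Tcstv3 (-0.40). With 1 pair left out the difference ran from -0.27 to 0.36 for Nanog, -0.28 to 3.46 for Dusp6, -1.57 to 0.13 for Usp17la, -1.18 to 0.24 for Arg2, -0.75 to 1.49 for AF067061, -0.85 to 1.58 for Gm20767, -1.76 to 0.43 for Zfp352, -0.91 to 1.12 for Tcstv3, -0.09 to 0.81 for Gas5, -0.04 to 0.98 for Snhg12, -2.98 to 0.15 for S100a6, -0.68 to 0.37 for Nupr1 and -0.07 to 0.46 for Chac1. The fit is itself paired, with the 4 backgrounds as blocks, and each condition has 1 array, so no further pairing by replicate number was run.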

Other observations

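Sterol and fatty acid synthesis genes had medians above 0 in both rescued pairs. Median log2 ratios over 22 genes were 0.01 and 0.39 in the unrescued and 0.54 and 0.32 in the rescued pairs. A difference above 0 was found for 18 of 22, beside 8705 of 18194 genes. By limma 6 rose in the unrescued arm and 2 in the rescued arm, beside 9.07% and 0.539% of all genes. Hmgcs1, which makes the precursor of mevalonate, had ratios of 1.11, 1.11, 0.90 and 0.68 and kept 71.6%. Of 26 glycolysis and hypoxia genes 9 rose in the unrescued and 3 in the rescued arm, beside the same shares of all genes. Aldoc was among the latter with -0.17, -0.06, 0.93 and 1.09 (limma adjusted p = 0.0401).

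The classical MHC class I heavy chain genes H2-K1 and H2-D1 fell in both arms, with ratios of -1.03, -0.83, -1.40 and -1.10 for H2-K1 and -1.05, -0.88, -1.38 and -1.07 for H2-D1. The heavy chains are close relatives and their probe sets may read one another. Tap1, the peptide transporter of the same pathway, went the other way and was among the called genes.

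The basement membrane collagens Col4a1 and Col4a2, which share a promoter region, rose in the unrescued arm with 2.22 and 1.83, and 2.06 and 1.96. With Nanog they were at 0.60 and 0.42 and with Esrrb at -0.62 and -0.66. The Esrrb cells also held the higher untreated primitive endoderm markers given above, and the part of these in the collagen values was not tested. Over 23 endoderm genes the median difference was -0.65, and -0.41 without the 2i pair, with median ratios of 0.09 and 0.42 in the unrescued and -0.12 and -0.58 in the rescued pairs.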
